A study of Mus musculus with 4 samples.

Results

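Calcium release and uptake by the sarcoplasmic reticulum drive each heartbeat, and 10 genes for that machinery were followed here in the infarcted mouse heart: Ryr2, Trdn, Casq2, Casq1, Hrc, Jph2, Atp2a2, Pln, Sln and Slc8a1. They were listed by function, and a gene was found by the RefSeq accession of its probe; all 10 were on the array, among 20659 genes with a symbol. The hearts came from male mice in which the left anterior descending artery had been tied to cause a myocardial infarction, and were taken on day 5. There were 2 wild-type heart samples (WT replicates 1 and 3) and 2 of VE-Cad-Cre-S1pr1 fl/fl mice (KO replicates 3 and 4), in which a Cre recombinase under the VE-cadherin promoter is meant to delete the sphingosine 1-phosphate receptor gene S1pr1 in endothelial cells. All 4 samples were infarcted, so none shows the uninjured heart, and the labels give no age, no alleles of the WT mice and no word on whether a sample is 1 heart or a pool.

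In a cardiomyocyte, calcium entering through surface channels opens the ryanodine receptor Ryr2, and calcium leaves the store to start contraction. The pump Atp2a2 (SERCA2) returns calcium to the store, held back by the small membrane proteins phospholamban (Pln) and, mainly in atrium and skeletal muscle, sarcolipin (Sln). Inside the store calcium is bound by calsequestrins (Casq2 in heart, Casq1 in skeletal muscle) and by Hrc, which triadin (Trdn) ties to the release channel. Junctophilin 2 (Jph2) holds the store against the cell surface, where the exchanger Slc8a1 (NCX1) removes calcium from the cell. A lower level of the pump is a known feature of failing heart muscle.

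Levels below are log2 of the Cy3 signal set against the 75th percentile of that array, and each difference is the KO mean less the WT mean in log2 units. A probe's brightness per molecule is its own, so levels are compared between arrays and not between genes. Of the 10 genes, 6 were well above background on all 4 arrays, 3 (Casq1, Jph2 and Slc8a1) on 3 arrays with WT replicate 1 missing, and 1 (Sln) on 0. Sln was therefore not among the 22925 features tested. S1pr1 separated the genotypes, with levels of 0.43 and 0.95 in WT but -2.69 and -2.30 in the KO samples. Of all features, 34.4% were separated in either direction. The S1pr1 difference of -3.19 (SE 0.38) did not pass the test over all features (adjusted p = 0.740 in limma). Failing that test therefore does not show that a gene is unchanged. WT replicate 1 stood apart from the rest of the arrays: it had 54.3% of probes well above background against 69.4% to 73.4% elsewhere. Its negative control spots had an SD of 15.7 in signal units, against 1.80 to 5.14 elsewhere. The dimmest signal still well above background lay at -4.39 on that array, against -7.08 to -6.50 elsewhere. Differences between genotypes are therefore given with and without WT replicate 1. All 4 arrays lay on 1 slide, and the genotypes took neighbouring positions (WT at 4 and 3, KO at 2 and 1), so position and genotype cannot be told apart. The labels do not state that samples of 1 genotype came from separate animals, and a p-value then reflects the spread among these 4 arrays alone, possibly a technical one.

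Hrc and Pln were the members with the largest difference between genotypes over the 4 arrays, though it was 0.34 and 0.21 without WT replicate 1. Casq2 is the main calcium buffer of the cardiac store. The promoters of these genes are shown here. They are RefSeq windows of build GRCm38.p6, from 250 bases before the start to 50 after it: Hrc at chr7:45335019-45335318, Pln at chr10:53337436-53337735 and Casq2 at chr3:102086165-102086464, all on the plus strand. Capitals mark GATAA (on either strand, so TTATC also counts), the core that GATA factors bind, and CANNTG, the E-box, which reads alike on both strands.
Hrc: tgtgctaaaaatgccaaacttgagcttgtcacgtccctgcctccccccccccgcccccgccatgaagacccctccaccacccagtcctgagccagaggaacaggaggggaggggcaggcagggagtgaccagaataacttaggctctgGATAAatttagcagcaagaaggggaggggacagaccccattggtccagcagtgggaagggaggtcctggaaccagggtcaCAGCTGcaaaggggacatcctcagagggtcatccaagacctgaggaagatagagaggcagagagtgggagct
Pln: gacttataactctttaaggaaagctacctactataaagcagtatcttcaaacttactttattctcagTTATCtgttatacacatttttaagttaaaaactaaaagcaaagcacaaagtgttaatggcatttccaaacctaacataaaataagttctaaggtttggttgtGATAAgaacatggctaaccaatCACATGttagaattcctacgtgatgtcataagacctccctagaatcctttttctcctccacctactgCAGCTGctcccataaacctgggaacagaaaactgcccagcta
Casq2: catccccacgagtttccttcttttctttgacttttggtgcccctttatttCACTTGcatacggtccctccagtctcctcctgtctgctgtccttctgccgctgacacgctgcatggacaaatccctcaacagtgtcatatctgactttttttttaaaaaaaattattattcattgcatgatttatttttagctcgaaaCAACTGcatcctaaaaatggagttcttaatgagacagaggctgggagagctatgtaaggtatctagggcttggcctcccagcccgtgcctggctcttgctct
GATAA was found 1 time in the Hrc window, 2 times in that of Pln and 0 times in that of Casq2. Of the 7 members with a window, 4 held GATAA (Casq1, Hrc, Pln and Slc8a1), against 25.4% of all 32851 windows of this length. All 7 held CANNTG, as did 72.3% of all windows. TATAAA, on either strand, was found in 1 of the 7 (Pln) and in 13.6% of all windows, and GGGCGG, on either strand, in 4 of the 7 and in 35.7%. These matches describe the letters only.

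Genes of the release complex were low on WT replicate 1 and close together on the other 3 arrays. Ryr2, the release channel, gave -0.30 and 4.47 in WT replicates 1 and 3 and 4.11 and 5.13 in KO replicates 3 and 4. WT replicate 3 lay between the KO arrays, so the genotypes overlapped, and the difference of 2.54 (SE 1.68, 95% interval -1.98 to 7.05) did not pass the test (adjusted p = 0.740 in limma). Trdn, which anchors calsequestrin to the channel, was at -0.68 and 3.18 in WT and at 2.73 and 3.88 in KO, a difference of 2.05 (SE 1.40) that was 0.12 without WT replicate 1. Jph2, the tether between store and surface, was at -4.88 (not well above background) and -2.39 in WT and at -2.49 and -1.88 in KO. Its difference was 1.45 (SE 0.92), and 0.21 without that array.

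Among the calcium buffers, Hrc had the widest spread of all members and Casq1 the smallest difference. Hrc, a histidine-rich calcium binding protein of the store, was at -1.94 and 4.60 in WT and at 4.18 and 5.70 in KO. The WT mean was 1.33 ± 4.62 and the KO mean 4.94 ± 1.07 (SD, n = 2 for both), 12.2-fold apart, and the interval of the log2 difference ran from -2.54 to 9.77. The spread between the WT replicates was thus larger than the difference between the genotypes. Casq2 was at -0.06 and 4.50 in WT and at 4.04 and 4.53 in KO, a difference of 2.07 (SE 1.58) that was -0.21 without WT replicate 1. Casq1, the skeletal muscle form, was dim throughout: -6.71 and -4.82 in WT and -5.94 and -5.36 in KO, a difference of 0.12 (SE 0.73, adjusted p = 0.957 in limma). Its highest array was WT replicate 3, and WT replicate 1 was not well above background.

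The calcium pump and its inhibitor gave bright signals on every array and followed the same arrays. Atp2a2 was at 2.87 and 6.56 in WT and at 6.27 and 7.09 in KO, a difference of 1.96 (SE 1.31, interval -1.57 to 5.49). Pln was at 1.44 and 6.52 in WT and at 6.17 and 7.29 in KO, a difference of 2.75 (SE 1.79, interval -2.05 to 7.54). Both were low on WT replicate 1 alone, and neither passed the test (adjusted p = 0.740 each in limma). Sln, the atrial and skeletal muscle inhibitor of the pump, was not well above background on any array, with signals of -6.64 and -8.70 in WT and -9.20 and -8.70 in KO that give no level. The atrial markers in these hearts were not all dim: of 10, 6 were well above background on all 4 arrays, Myl4 among them at -0.79 to -0.25, and Myl7 was so on 1.

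Slc8a1, the sodium-calcium exchanger of the cell surface, was at -5.31 (not well above background) and -2.00 in WT and at -2.60 and -1.98 in KO. Its difference was 1.37 (SE 1.18), and -0.29 without WT replicate 1. Against the dimmest signal well above background on WT replicate 1, WT replicate 3 was 5.23-fold higher for Slc8a1 and 3.996-fold for Jph2. Casq1 on WT replicate 3 lay below that limit and gives no fold. The limit is the level of a single probe, so these folds are not lower bounds. The second Slc8a1 probe was at -4.40 (not well above background) and -2.46 in WT.

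**Figure D1:**
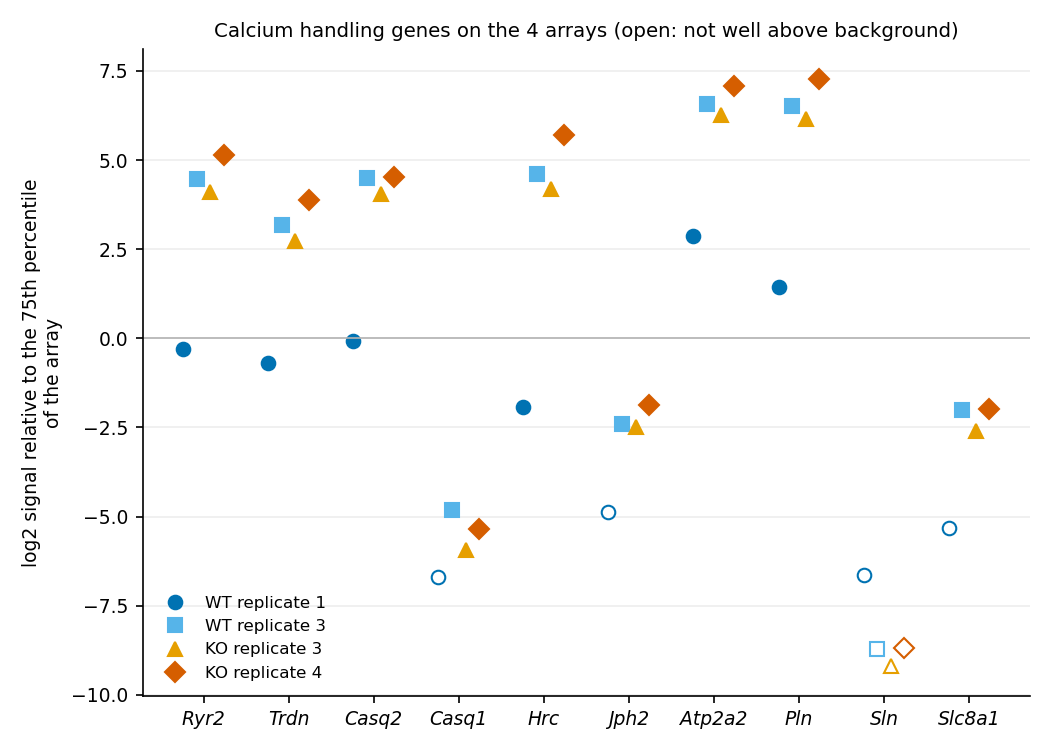
Log2 signal relative to the 75th percentile of the array (y axis) for the 10 genes (x axis), 1 point per array; blue marks are WT, orange marks are KO, and open marks are not well above background. For Ryr2, Trdn, Casq2, Hrc, Atp2a2 and Pln, WT replicate 1 sits far below a cluster of the other 3 arrays; for Ryr2 the values are -0.30 against 4.11 to 5.13.

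As a set, the 9 tested members all had a higher mean in KO (54.8% of all tested features did), with a median difference of 2.05 against 0.072 over all features. For Casq1 that sign, and whether its genotypes overlap, rest on a WT replicate 1 signal that is not a measured level. None of the 9 passed the test: limma called 0 features at an adjusted p under 0.05 (0% of the 22925 tested in either direction). S1pr1, the gene meant to be deleted, was not called either, so the test does not show that the members are unchanged. At an unadjusted p under 0.05, limma called 0 of the 9 members and 2.76% of all features. In 0 of the 9 did the KO arrays lie wholly on one side of the WT arrays, where 34.4% of all features were so separated (18.3% of all features with KO higher). For all 9, KO replicate 3 was below WT replicate 3 (54.5% of features), and for 8 of the 9 KO replicate 4 was above it (62.2% of features), Casq1 being the exception. An exact permutation test over 2 against 2 arrays cannot give a p below 0.33.

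The difference between the genotypes rested on WT replicate 1. Without it the median over the 9 members was 0.12, and the differences ran from -0.83 (Casq1) to 0.34 (Hrc). There were 6 members above 0 (57.5% of all features) and 3 below (Casq1, Casq2 and Slc8a1). Ryr2 then differed by 0.15 (SE 0.61, interval -1.46 to 1.76), Atp2a2 by 0.12 (SE 0.56, interval -1.36 to 1.59) and Pln by 0.21 (SE 0.64, interval -1.47 to 1.89). These intervals, from 1 WT array against 2 KO arrays with the WT array assumed to vary like the KO arrays, allow changes of over 2-fold in either direction. Leaving out WT replicate 3 instead gave a median of 3.98, with 0 of the 9 members called.

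**Figure D2:**
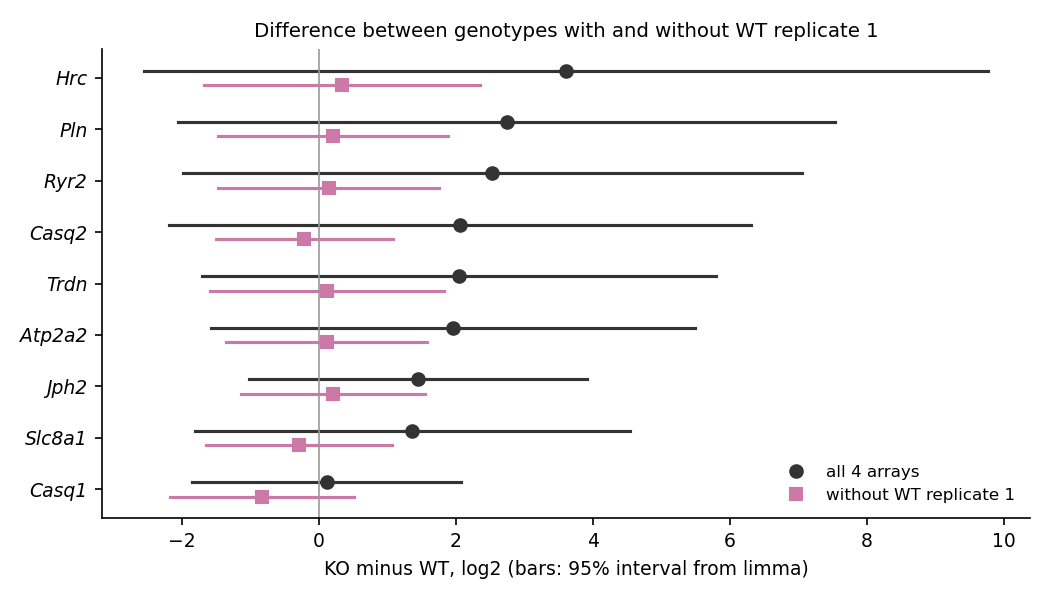
KO minus WT on the log2 scale (x axis) for each of the 9 tested genes (y axis), from all 4 arrays (black circles) and without WT replicate 1 (pink squares); bars are 95% intervals from limma. Every interval spans 0, and the estimate for Hrc moves from 3.61 to 0.34 when that array is left out.

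The WT replicates differed more from each other than the genotype means did. Among the 6 members well above background on all 4 arrays, WT replicate 1 was the lowest array for 6, as it was for 36.1% of all features above background on all 4. Their median difference, WT replicate 1 minus WT replicate 3, was -4.67. For Hrc the gap was 93.0-fold, for Pln 33.8-fold, for Ryr2 27.5-fold, for Casq2 23.6-fold, for Trdn 14.6-fold and for Atp2a2 12.9-fold. A gap of 4-fold or more was thus found in 6 of these 6 and in 4.31% of all features above background on all arrays. The signals of Slc8a1 and Jph2 were also lower on WT replicate 1, by an amount that is not known, and the place of Casq1 on that array is not known. KO replicate 4 was above KO replicate 3 for all 9 members as well (61.7% of all features), by 0.50 (Casq2) to 1.52 (Hrc), and was the highest array for 8 of the 9 (45.9% of all features). Hrc had the widest gap of the measured members in both genotypes.

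The cardiomyocyte markers moved on the same arrays. All 16 listed ventricular markers, none of them a member, were lowest on WT replicate 1 and highest on KO replicate 4. Their mean level was 2.21 and 6.24 in WT and 6.10 and 6.82 in KO, and all 16 were well above background on every array. Markers of several other cell types were higher on WT replicate 1 than on WT replicate 3. Of 4 tested adipocyte markers the median difference of WT replicate 1 from WT replicate 3 was 5.08, with Adipoq at 1.07 against -4.89 and Cidec at 0.84 against -5.87, while Cidea was lower there (-3.69). The medians were 2.04 for neutrophil, 1.57 for lymphoid and 1.44 for erythroid markers. Of the macrophage markers, all 11 tested were highest on WT replicate 1, with list means of 3.60 and 2.71 in WT and 2.54 and 1.37 in KO. Fibroblast markers had means of 3.96 and 3.80 in WT and 4.10 and 2.43 in KO, and endothelial markers 1.76 and 2.17 against 2.48 and 2.37. The part of cell makeup in the members' values was not tested, nor was that of the higher noise of the WT replicate 1 array. In these whole-tissue samples fewer cardiomyocytes and less RNA per cardiomyocyte cannot be told apart.

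**Figure D3:**
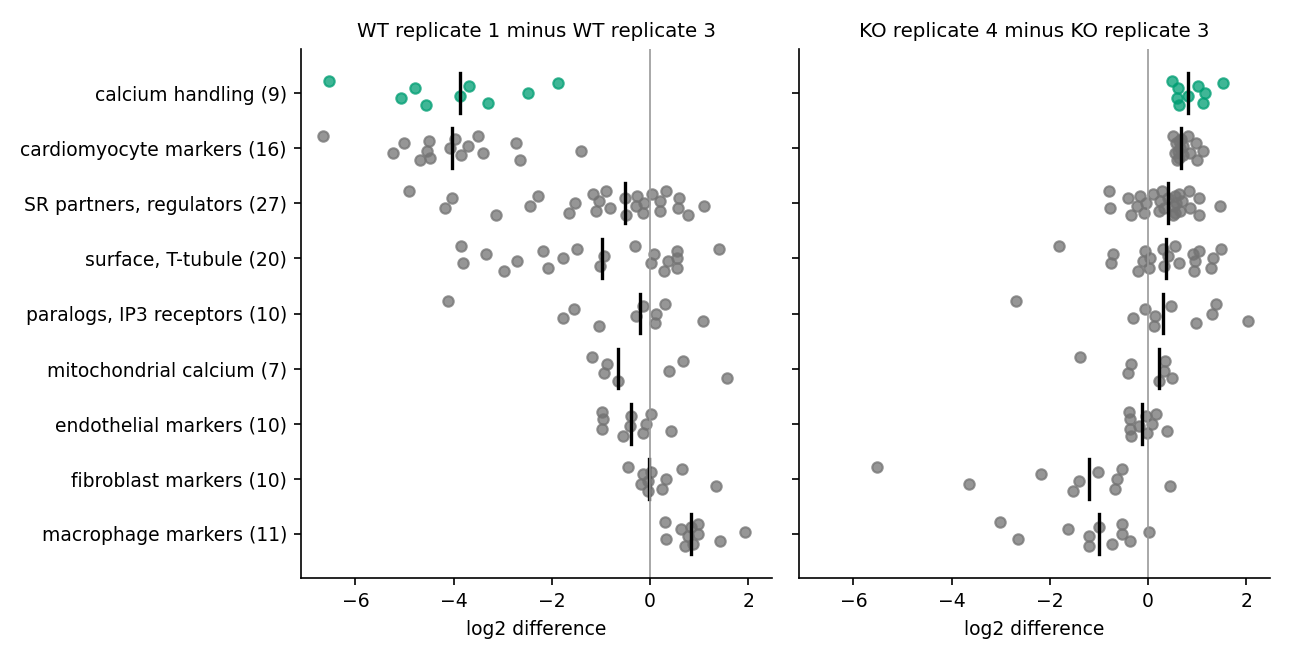
Log2 difference between the replicates of 1 genotype (x axis), WT replicate 1 minus WT replicate 3 on the left and KO replicate 4 minus KO replicate 3 on the right, with 1 point per tested gene, gene lists as rows (number of genes in brackets) and black bars at the medians. In WT the calcium handling genes (green, median -3.86) lie with the cardiomyocyte markers (median -4.03) at the left, and macrophage markers lie at the right of 0 (median 0.83); the WT points of Casq1, Jph2 and Slc8a1 use a WT replicate 1 signal not well above background.

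Set against the mean of the 16 cardiomyocyte markers of the same array, the 6 members above background on all arrays varied less than on the percentile scale. Atp2a2 stood at 0.66 and 0.33 in WT and 0.17 and 0.27 in KO relative to the markers, and Trdn at -2.89 and -3.05 against -3.37 and -2.94. Hrc stood at -4.15 on WT replicate 1, against -1.64 on the WT array with number 3 and -1.91 and -1.12 in KO. On the percentile scale, the gap of Hrc between the WT replicates was -6.54. There it lay within the range of the markers themselves, from -1.41 (Actc1, cardiac actin) to -6.66 (Ckm, muscle creatine kinase). Of the 16 markers, 15 had a smaller gap. Relative to the markers, Pln (-0.77 and 0.28 in WT, 0.070 and 0.46 in KO) and Ryr2 (-2.51 and -1.76, then -1.99 and -1.69) were also lowest on WT replicate 1. Their differences from WT replicate 3 were -1.05 and -0.75 on that marker scale.

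On the marker scale, 3 of the 9 members had a higher mean in KO (Hrc 1.37, Pln 0.51 and Ryr2 0.30) and 6 a lower one, from -0.17 (Casq2) to -2.12 (Casq1), with a median of -0.19. Only 1.1% of all features had a higher mean in KO on this scale. None of the 9 passed the test (0% of all features called), and the fit gave each an SE of 2.12, since the shift of the marker mean enters every feature. For 3 of the 9 (Atp2a2, Casq1 and Slc8a1) both KO arrays lay below both WT arrays, near the background of 29% for either direction. For Atp2a2 this held on its brighter probe only, as both KO arrays lay above both WT arrays on its second probe. Casq1, Slc8a1 and Jph2 were not well above background on WT replicate 1, so their height there on this scale is not a measured level. Without WT replicate 1 the 9 differences ran from -1.05 (Casq1) to 0.12 (Hrc), and those of Ryr2 and Pln were -0.077 and -0.013. Without WT replicate 3, limma called 2 members on this scale, Hrc (2.63) and Casq1 (-3.20), in a fit that called 21759 of 22926 features.

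**Figure D4:**
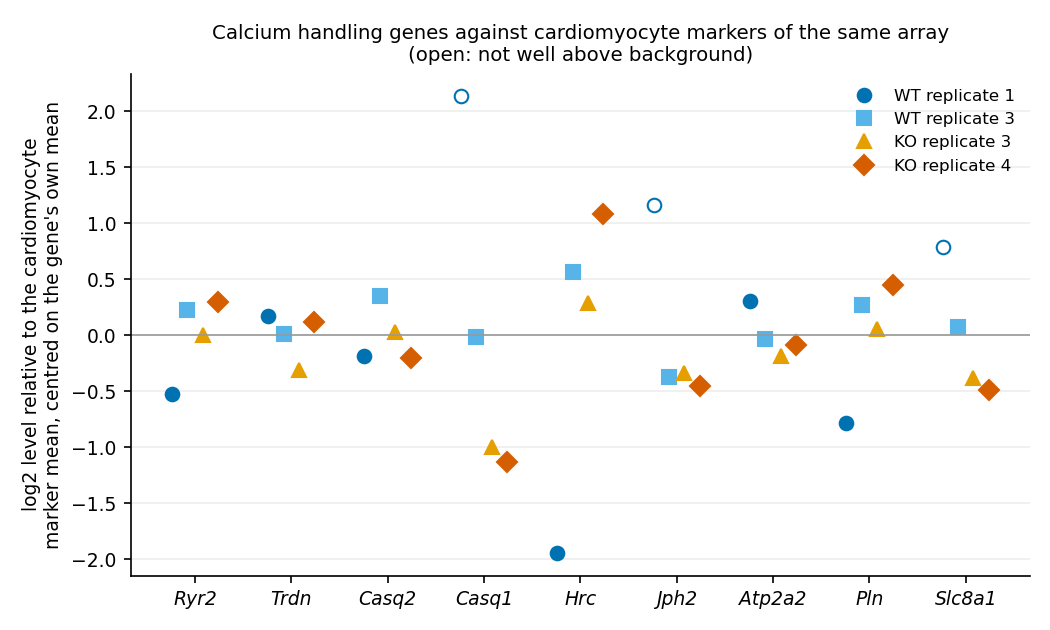
Log2 level relative to the mean of the 16 cardiomyocyte markers of the same array, centred on each gene's own mean over the 4 arrays (y axis), for the 9 tested genes (x axis); blue marks are WT, orange marks are KO, and open marks are not well above background. Atp2a2, Trdn and Casq2 stay close to 0 on all arrays, and Hrc is lowest on WT replicate 1.

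The balance between members was read as the log2 ratio to Atp2a2 on the same array, where only changes between arrays have a meaning. The ratio of Pln to Atp2a2, inhibitor to pump, was -1.43 and -0.05 in WT and -0.10 and 0.20 in KO, a difference of 0.79 that is smaller than the gap between the WT replicates (exact two-sided permutation p = 0.667). WT replicate 3 and both KO arrays lay within a narrow range of each other, and the difference was 0.093 without WT replicate 1. The ratio of Hrc to Atp2a2 was -4.81 and -1.96 in WT and -2.09 and -1.39 in KO (difference 1.65, exact permutation p = 0.667, and 0.22 without WT replicate 1). Trdn kept the steadiest ratio, from -3.55 to -3.21 over the 4 arrays. The ratios of Slc8a1 and Casq1 were lower on both KO arrays, with differences of -0.59 and -1.85 (exact permutation p = 0.33 each, the smallest possible), and for both the WT replicate 1 value rests on a signal not well above background. Without that array the differences were -0.40 and -0.94. Every ratio depends on which Atp2a2 probe is used. With the mean of each gene's probes, the median difference over the 8 ratios went from 0.098 to -0.14. Trdn then went from 0.090 to -0.11, and Slc8a1 to -1.13.

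Where a member had 2 probes, the probes differed in size but not in direction on the percentile scale. The second Atp2a2 probe was at -0.34 and 3.55 in WT and 3.61 and 4.62 in KO, a difference of 2.51 against 1.96 for the brighter probe. On it KO replicate 3 was above WT replicate 3, by a little, so that the genotypes did not overlap, unlike on the brighter probe. The second Trdn probe differed by 2.21 and the second Slc8a1 probe by 0.84, and neither was well above background on WT replicate 1. Without that array the second probes differed by 0.56 (Atp2a2), 0.10 (Trdn) and -0.13 (Slc8a1).

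Proteins that act on the store varied widely in how they differed between the WT replicates, from -4.92 (Srl) to 1.09 (Calr, a calcium binding protein of the endoplasmic reticulum, named after its value was seen). Of 31 listed partners and regulators 27 were tested, 0 passed the test in either direction, 19 had a higher and 8 a lower mean in KO, and the median was 0.33. Without WT replicate 1 the median was 0.051, with 16 higher and 11 lower. Srl (sarcalumenin, a calcium binding protein of the store) was at -0.88 and 4.04 in WT and at 3.73 and 4.38 in KO. Tmem38a, a potassium-permeable channel of the same membrane, was at 0.80 and 4.82 against 4.59 and 5.64. S100a1, which binds the release channel and the pump, was at 1.65 and 4.10 in WT and 4.27 and 4.90 in KO, with a difference of 1.71 (SE 0.91). Its genotypes did not overlap, as was so for 10 of the 27 tested partners and for 34.4% of all features. Without WT replicate 1 the differences were 0.49 for S100a1, 0.020 for Srl and 0.29 for Tmem38a.

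Camk2d, the main cardiac isoform of the kinase CaMKII, was at 2.33 and 3.51 in WT and 3.38 and 3.89 in KO (difference 0.71, SE 0.53), and Camk2b differed by 1.35 (SE 0.64). Asph, whose locus also encodes the calsequestrin anchor junctin, differed by 0.68 (SE 0.51). Akap7, an anchor of protein kinase A, was at 3.99 and 4.80 in WT and 5.13 and 5.99 in KO, a difference of 1.17 (SE 0.50) with 0.76 left without WT replicate 1. Fkbp1b (FKBP12.6), a binding partner of Ryr2, was at -0.15 and -0.91 in WT and -0.96 and -1.75 in KO. Without WT replicate 1 the differences were 0.13 for Camk2d, 0.59 for Camk2b, 0.16 for Asph and -0.44 for Fkbp1b. All 5 had an adjusted p = 0.740 in limma. Ppp1r1a, an inhibitor of protein phosphatase, was not well above background on enough arrays to be tested. Ryr3, Mrln, Strit1 and Arln were not analysed here.

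Other forms of the same proteins had patterns of their own. Of 10 tested paralogs and inositol trisphosphate receptors, 0 passed, 7 had a higher mean in KO and the median was 0.57, or 0.12 without WT replicate 1. Atp2a1, the fast skeletal muscle pump, followed the members at -1.88 and 2.23 in WT and 2.16 and 3.14 in KO, a difference of 2.47 that was 0.42 without WT replicate 1. Atp2a3, the pump of non-muscle cells, did not, at -3.24 and -3.10 against -2.90 and -2.42. The inositol trisphosphate receptors Itpr1 and Itpr2 spanned little: Itpr1 ran from 2.02 to 2.17 and Itpr2 from 2.54 to 2.72 over the 4 arrays. Ryr1, the skeletal muscle release channel, was at -3.82 and -4.89 in WT and -4.56 and -7.24 in KO, the last not well above background. Slc8a3 differed by 1.15 (SE 0.82), and by 0.26 without WT replicate 1. Jph3 was not well above background on WT replicate 1 and differed by 0.95 (SE 0.94) without it.

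Skeletal muscle markers, which bear on Casq1 and Sln, were mixed. Of 15, 5 were well above background on all 4 arrays and 3 (Myh1, Mylpf and Myog) on 0. Tnni2 was at 0.52 and 0.03 in WT and -0.97 and -0.90 in KO, Tnnt3 at -2.95 to -2.41 except -5.80 on KO replicate 4, and Mybpc2 from -2.56 to 0.62. Cacna1s ran from -3.51 to -0.29. On the 3 arrays other than WT replicate 1, where they were not well above background, Pvalb ran from -3.84 to -2.21 and Tnnc2 from -4.23 to -3.53. Myh2, Myh4, Actn3 and Chrna1 were well above background on 1 or 2 arrays. Among atrial markers, Nppa was at 5.18 and 6.71 in WT and 7.03 and 4.01 in KO, Kcnk3 ran from -3.72 to 1.25, Kcna5 from -1.13 to 1.93 and Nr2f2 from -0.54 to 0.048. Kcnj3, Stard10 and Bmp10 were not well above background on WT replicate 1, and on the other 3 arrays ran from -3.28 to -1.43, from -3.32 to -1.87 and from -5.94 to -5.46.

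At the cell surface, Cacna1c, the pore of the L-type channel that triggers release, was at -6.67 (not well above background) and -3.70 in WT and -3.82 and -2.89 in KO (difference 1.83, SE 1.09, and 0.35 without WT replicate 1). Cacnb2, its beta subunit, was at -3.96 and -0.15 against -0.71 and 0.20, a difference of 1.80 that was -0.11 without that array. Of the 20 tested surface and T-tubule genes, 15 had a higher mean in KO and 0 passed the test, with a median of 0.96 that was 0.12 without WT replicate 1 (13 higher, 7 lower). The 7 genes of mitochondrial calcium transport had a median of -0.21 and 0 passed; Letm1 differed by 0.76 (SE 0.51) and Mcub by -0.94 (SE 0.77). Without WT replicate 1 that median was -0.070, and the differences were 0.17 and -0.16.

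Among 15782 tested genes with a symbol outside these lists, the 5 whose 4 levels, each centred on its own mean, lay closest to the centred mean of the 9 members were Apobec2, Chchd10, Pde4dip, Map7 and Thrsp. Their root mean square distances were 0.050, 0.066, 0.069, 0.074 and 0.084 in log2 units. Apobec2, for example, was at -3.53 and 0.56 in WT and 0.080 and 1.05 in KO. On WT replicate 1, Map7 was not well above background, and neither were Casq1, Jph2 and Slc8a1, whose signals enter the mean of the members. Likeness over 4 arrays, of which 1 stands apart, is a description only.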

How the data were processed

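RNA from 4 samples was labelled with Cy3 and read on 1-colour Agilent mouse arrays. Signals were extracted with Feature Extraction 11.0.1.1 per the file headers (the submitters' processing notes name version 9.1). The authors' processed intensity had background removed and a spatial trend corrected array by array, per the file headers. Spot flags, a kind of other value, were taken from the deposited files unaltered. The deposited series table is on a log2 scale with alike quartiles in all columns, and how it was normalized is not given in the sources used here; it served as an alternative.

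Control and outlier spots were left out, spots of 1 probe averaged, and log2 intensities scaled to the 75th percentile of each array. Of 39429 probes, 27234 were named through RefSeq accessions (GRCm38.p6 table). The array grid names mm9, so that table gave names only. Probes well above background on at least 2 arrays were kept, with the brightest probe per gene. KO was compared with WT by limma 3.58.1 (lmFit and eBayes, R 4.3.3, two-sided, Benjamini-Hochberg over all features, threshold 0.05). The fit was checked on simulated data with independent noise of equal size on all arrays. No simulated array stood apart as WT replicate 1 did, so the check does not cover that case. A second fit used the mean of the 16 cardiomyocyte markers of each array in place of the percentile. Genotypes were assigned from the sample titles, whose numbers (WT1, WT3, KO3 and KO4) are the replicates. Named genes were all members, a fixed set of partners, the 2 of smallest p in each related list, and markers of atrium and skeletal muscle above background on at least 1 array, of which a few are not reported here; the members and lists were chosen with earlier results of these data known. The number of arrays limits the precision. Alternatives covered scaling, background correction, dim probes, the probe per gene, the variance model, the threshold and each array left out.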

Additional observations from a re-analysis of the deposited data

How the results depend on the processing

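Features called by limma numbered 0 under every alternative run on all arrays or, on the percentile scale, with 1 array left out (quantile, median and marker scaling, normexp on median signals, deposited values, both filters, mean of probes, trend and robust eBayes, the looser threshold of 0.10), as did members called; limma's unadjusted p under 0.05 gave 633 features, and 167 to 4251 with 1 array left out (167 without KO replicate 4, 379 without WT replicate 1, 1314 without KO replicate 3 and 4251 without WT replicate 3). Normexp on median signals was chosen after seeing the data, since the planned correction on mean signals was not run: no mean signal column was used here. The slide block was not run because all arrays share 1 slide. No paired analysis was possible because the genotypes share only 1 replicate number.

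Of 69 member differences under the alternatives that keep all arrays, marker scaling aside, 68 kept their sign. The variance model and both filters left the estimates unaltered, as did the mean of probes for members with 1 probe. Those signs could not change. With normexp, Casq1 turned to -0.022, Jph2 fell from 1.45 to 0.70 and Slc8a1 fell from 1.37 to 0.62. Itpr2 turned to -0.024 with median scaling. Marker scaling turned Atp2a2 (-0.28), Casq1 (-2.12), Casq2 (-0.17), Trdn (-0.19), Jph2 (-0.79), Slc8a1 (-0.87), Asph (-1.56), S100a1 (-0.52), Camk2d (-1.53), Atp2a3 (-1.72), Cacna1c (-0.40), Cacnb2 (-0.44), Itpr2 (-2.15), Akap7 (-1.07), Camk2b (-0.88), Jph3 (-1.14), Slc8a3 (-1.09) and Letm1 (-1.48), because the marker mean was higher in KO. With the median of the markers in place of their mean, Casq2 and Trdn differed by 0.032 and 0.015. Of the ratios to Atp2a2, normexp moved that of Slc8a1 from -0.59 to -1.25 and that of Jph2 from -0.51 to -1.18.

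With 1 array left out, Casq1 ranged from -0.83 to 1.06, Casq2 from -0.21 to 4.35, Slc8a1 from -0.29 to 3.03, Cacnb2 from -0.11 to 3.70 and Itpr1 from -0.094 to 0.049. Relative to the markers, Ryr2 ranged from -0.077 to 0.67, Pln from -0.013 to 1.04, Casq2 from -0.43 to 0.10, Trdn from -0.40 to 0.028, and the count of called members from 0 to 2. Those 2 were Hrc and Casq1 without WT replicate 3, a fit that also called 21759 of 22926 features, since WT replicate 1 was then the only WT array and its marker shift enters every feature; without WT replicate 1 that scale gave 15 called features and 0 called members.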
